A study of Mus musculus with 2 samples.

Results

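The cells described here are the 52 neurons of the *Runx1*-floxed library whose *Calb2* RNA lay at an intermediate level while *Lypd1* RNA was low. They were chosen by measured values: *Lypd1* under 100 CPM, the share of a cell's UMIs scaled to a total of 1000000 (a UMI, or unique molecular identifier, marks 1 captured RNA molecule), and *Calb2* from 1000 to under 10000 CPM. They were 52 of the 407 cells of their library and of 869 cells in all. The 139 control cells that pass the same thresholds served as the comparison, and this range of *Calb2* and *Lypd1* is called the window below. The study profiled single spiral ganglion neurons from mouse cochlea, sorted for the tdTomato reporter, with version 3 of the 10x 3′ kit. The control library (iCON) came from Runx1-CreER/+; Ai14/+ mice. The iCKO library came from Runx1-CreER/Runx1F; Ai14/+ mice, which also bear a floxed *Runx1* allele. Both groups therefore carry the tamoxifen-inducible Cre at *Runx1* and the Ai14 reporter, and both received tamoxifen on postnatal day 1. Tissue was taken on postnatal days 27 to 29, with males and females in the same library. The Cre is driven from *Runx1*, so the reporter is meant to label cells that used that gene's regulatory sequence when tamoxifen was given; the purity of the sort was not tested. The number of animals is not given in the sources used here, and each group is 1 library. No test between the groups was therefore run, and no difference has a replicate check.

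Spiral ganglion neurons carry sound information from cochlear hair cells to the brain. Most are type I neurons, which contact inner hair cells and are divided into the subtypes Ia, Ib and Ic. Ia neurons are marked by *Calb2* (calretinin), Ib neurons by *Calb1* (calbindin) with intermediate *Calb2*, and Ic neurons by *Lypd1* and *Pou4f1*, while type II neurons contact outer hair cells. RUNX1 is a DNA-binding transcription factor that works with the cofactor CBFB, and in the ganglion its RNA is known from Ib and Ic neurons. Calretinin and calbindin are cytoplasmic calcium-binding proteins.

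The members held 18582 to 41817 UMIs per cell with a median of 29521, against a median of 47778 in the iCON window. The median number of detected genes was 6004 in members and 7119 in iCON window cells. By sex-linked RNA, 35 of the 52 members and 51 of the 139 iCON window cells expressed *Xist* alone (*Xist* cells), and 16 and 86 expressed Y-linked genes alone (Y-linked cells). Low myelin-gene RNA, meaning fewer than 10 UMIs summed over 6 myelin genes, was found in 21 members (40.4%) and 25 iCON window cells (18.0%). Doublet calling marked 2 members and 0 iCON window cells. It was run on each library alone and marked 10 of 407 iCKO cells and 0 of 462 iCON cells. The 0 in the iCON window therefore does not compare the windows. No cell barcode occurred in both libraries. The targeted gene *Runx1*, described below, was not lower in members; 3′ tags need not lie in a deleted part of a gene, so its level checks nothing about the label. Values within the sex and myelin classes are given beside some of the results below, and the part of these classes in the results was not tested.

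The window was thinly filled in the iCKO library. It held 12.8% of iCKO cells (exact binomial 95% interval 9.69 to 16.4) and 30.1% of iCON cells (25.9 to 34.5), which is -17.3 percentage points apart (counting interval -22.5 to -11.9). These intervals and all others here cover counting error only. Among *Xist* cells the difference was -9.27 points, and among Y-linked cells it was -23.1 points. Of the 142 iCKO cells with *Calb2* from 1000 to under 10000 CPM, 36.6% were in the window and 82 cells (57.7%) had *Lypd1* of 1000 CPM or more. Of the 204 iCON cells with *Calb2* in that range, 68.1% were in the window and 39 (19.1%) had *Lypd1* of at least 1000 CPM. The cells beyond the upper *Calb2* limit with low *Lypd1*, called *Calb2*-high, numbered 201 in iCKO (49.4%) and 85 in iCON (18.4%). The cells with *Lypd1* of at least 1000 CPM, called *Lypd1*-high, numbered 126 and 180.

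The values that chose the members are given as a description. Member *Calb2* ranged from 2256 to 9892 CPM with a median of 6112, and iCON window cells ranged from 1047 to 9862 CPM with a median of 4582. The nearest *Lypd1*-low iCKO cells outside the limits had 745 CPM below and 10006 CPM above. *Lypd1* was 0 in 41 members, its highest value inside was 97.7 CPM and the lowest value above the limit at the same *Calb2* was 132 CPM. Of the members, 29 (55.8%) lay at 6000 CPM of *Calb2* or more, against 43 iCON window cells (30.9%). The members therefore sat closer to the upper *Calb2* limit than the control cells did.

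**Figure D1:**
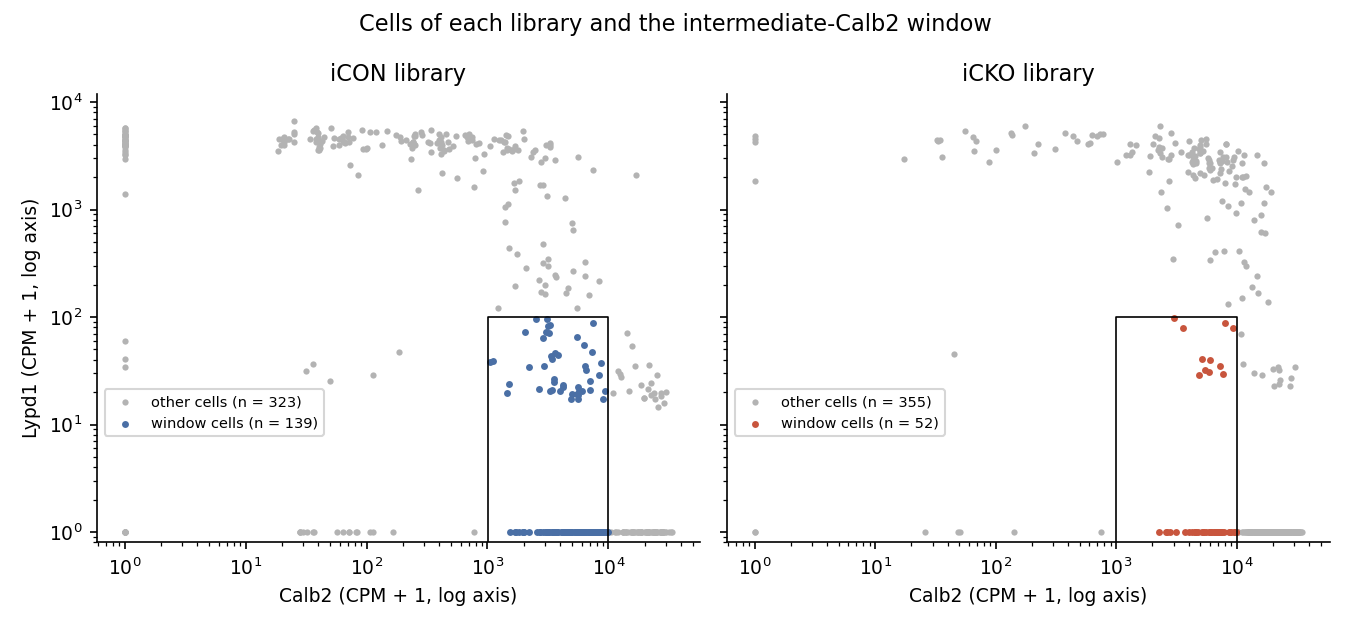
*Calb2* (horizontal) and *Lypd1* (vertical) in each cell of the iCON (left) and iCKO (right) library, in CPM plus 1 on log axes; the box is the window and coloured points are window cells. The iCKO box holds 52 cells and the iCON box 139, and more iCKO cells lie to its right and above its right side.

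The Ib markers *Calb1* and *Lrrc52* did not mark these cells off within their own library, whereas *Ttn* was highest in them, so they are called here by their rule. *Calb1* averaged about as much in iCKO *Calb2*-high cells (136 CPM), with a UMI in 54.7% of thinned cells, and *Lrrc52* was sparse throughout. *Calb1* (GRCm38, chr4:15881264-15908064, plus strand) ran from 0 to 781 CPM in members with a median of 73.6, and from 0 to 622 CPM in iCON window cells with a median of 45.6. The ranges overlapped nearly throughout. The means were 121 and 96.6 CPM, a log2 ratio of 0.31 with a counting interval of -0.06 to 0.42. Within classes the *Calb1* ratio was -0.017 in cells with high and 1.05 in cells with low myelin-gene RNA, and 0.38 in *Xist* and 0.48 in Y-linked cells. Unless another pair is named, ratios are log2 of mean CPM in iCKO over iCON window cells, with 5 CPM added to each mean, while their intervals refer to the summed UMIs without that addition. After each cell was thinned to 20000 UMIs, 64.7% of 51 members held a *Calb1* UMI (50.1 to 77.6) and 59.4% of 138 iCON window cells did (50.7 to 67.7). In 34 cells of both libraries that carry type II markers and neither *Calb2* nor *Lypd1* at these levels, 0 held a *Calb1* UMI after thinning, which by a limit of 3 counts allows a share of up to 8.82%, and 1 held one before thinning. Those cells had a median depth of 28196 UMIs.

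*Lrrc52*, which encodes an auxiliary potassium channel subunit, was sparse in both windows. Its mean was 8.68 CPM in members, from 15 UMIs in 11 cells, and 11.1 CPM in iCON window cells. The log2 ratio was -0.24 with a counting interval of -1.12 to 0.60, so a difference was not detectable at this depth. Among *Xist* cells the ratio was 0.64, and among Y-linked cells, where members held 0 *Lrrc52* UMIs, it was -1.91. *Ttn* (chr2:76703980-76982547, minus strand), the gene of the giant muscle protein titin and the third Ib marker, had means of 101 CPM in members and 131 CPM in iCON window cells. The medians were nearly equal at 57.7 and 58.9 CPM, and the highest cells had 487 and 1469 CPM. The log2 ratio of *Ttn* was -0.37 with an interval of -0.49 to 0.01. Its mean was uneven among members: 8 cells low in *Btbd9*, described below, averaged 6.99 CPM and 43 others averaged 117 CPM. In the 136 iCON window cells not low in *Btbd9* the *Ttn* mean was 126 CPM. In *Xist* cells the *Ttn* ratio was -0.92, with means of 113 and 218 CPM, and with high and low myelin-gene RNA it was -0.55 and -0.56.

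The Ia markers other than *Calb2* were low, and their means were higher in members than in iCON window cells. Neither passed the minimum level set for the comparison across genes. *Pcdh20*, a protocadherin of cell adhesion, averaged 11.5 CPM in members and 2.42 CPM in iCON window cells, a log2 ratio of 1.15. After thinning, 21.6% of members and 2.17% of iCON window cells held a *Pcdh20* UMI. The ratio lay on the other side of 0 in Y-linked cells, at -0.45, against 1.37 in *Xist* cells. Its mean was uneven among members: 8 cells described below averaged 35.8 CPM, and 43 others averaged 7.23 CPM with a median of 0. *Rxrg*, a retinoid X receptor, averaged 13.7 and 6.68 CPM, and 25.5% and 9.42% of thinned cells held a UMI. Its log2 ratio of 0.68 likewise changed sign in Y-linked cells, at -0.14, against 1.12 in *Xist* cells. In *Calb2*-high cells the same shares were 44.3% (iCKO) and 49.4% (iCON) for *Pcdh20*, and 60.2% and 61.4% for *Rxrg*. The share of members was smaller than that of *Calb2*-high cells of either library for both genes.

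Of the Ic markers other than *Lypd1*, *Pou4f1* and *Grm8* were lower in members than in *Lypd1*-high cells, and *Ntng1* was not. *Pou4f1*, a POU-domain transcription factor, averaged 17.0 CPM in members, a log2 ratio of 0.37 over iCON window cells, and 108 CPM in iCKO *Lypd1*-high cells. That ratio was 0.57 in *Xist* and -0.24 in Y-linked cells. After thinning, 23.5% of members and 16.9% of iCKO *Calb2*-high cells held a *Pou4f1* UMI, against 19.6% of window cells and 1 of 83 *Calb2*-high cells in iCON. *Grm8*, a metabotropic glutamate receptor, averaged 4.16 CPM in members, 3.63 CPM in iCON window cells and 87.7 CPM in iCKO *Lypd1*-high cells. *Ntng1*, which encodes the adhesion protein netrin-G1, averaged 209 CPM in members, 208 CPM in iCKO *Lypd1*-high cells and 195 CPM in iCON window cells. No member carried UMIs of 3 or more of the 6 type II markers, and *Th* and *Plk5* were at 0 in every window cell of both libraries. The type II marker *Gata3* was not absent: after thinning, 49.0% of members and 46.4% of iCON window cells held a UMI of it. Together the 6 markers had 69 UMIs in members and 262 in iCON window cells. Of the markers of other cells, *Csf1r*, *Aif1* and *Cldn5* were at 0 in all window cells, and *Cd79a* had 0 UMIs in members and 1 in the iCON window. The 6 fibroblast or bone genes, 2 of them at 0 in members, together had 217 UMIs in members and 1099 in iCON window cells. Their summed level ran from 0 to 592 CPM in members (median 77.8) and from 0 to 702 CPM in iCON window cells (median 171), and its part in the results was not tested.

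*Runx1* RNA (chr16:92601466-92826149, minus strand) was present in nearly every member. It ran from 0 to 361 CPM with a median of 89.5 in members, and from 0 to 421 CPM with a median of 97.4 in iCON window cells. A *Runx1* UMI was found in 51 of 52 members and 133 of 139 iCON window cells, and after thinning in 84.3% and 81.9%. The means were 118 and 107 CPM, a log2 ratio of 0.14 with an interval of -0.18 to 0.30. In the 34 cells with type II markers, 0 held a *Runx1* UMI. The members therefore did not show lower *Runx1* RNA in the library labelled iCKO. Counting the 3′ end leaves unseen whether exons further upstream are missing, and the comparisons here follow the library labels, not the level of *Runx1*. Within classes of cells the ratio took either sign: -0.31 in *Xist* cells, 0.68 in Y-linked cells, -0.26 in cells with high and 0.49 in cells with low myelin-gene RNA. In *Calb2*-high cells *Runx1* averaged 92.9 CPM in iCKO and 15.9 CPM in iCON. The share of cells with a *Runx1* UMI was nonetheless smaller in iCKO *Calb2*-high cells than in members, 149 of 201 against 51 of 52, or 64.7% against 84.3% after thinning.

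**Figure D2:**
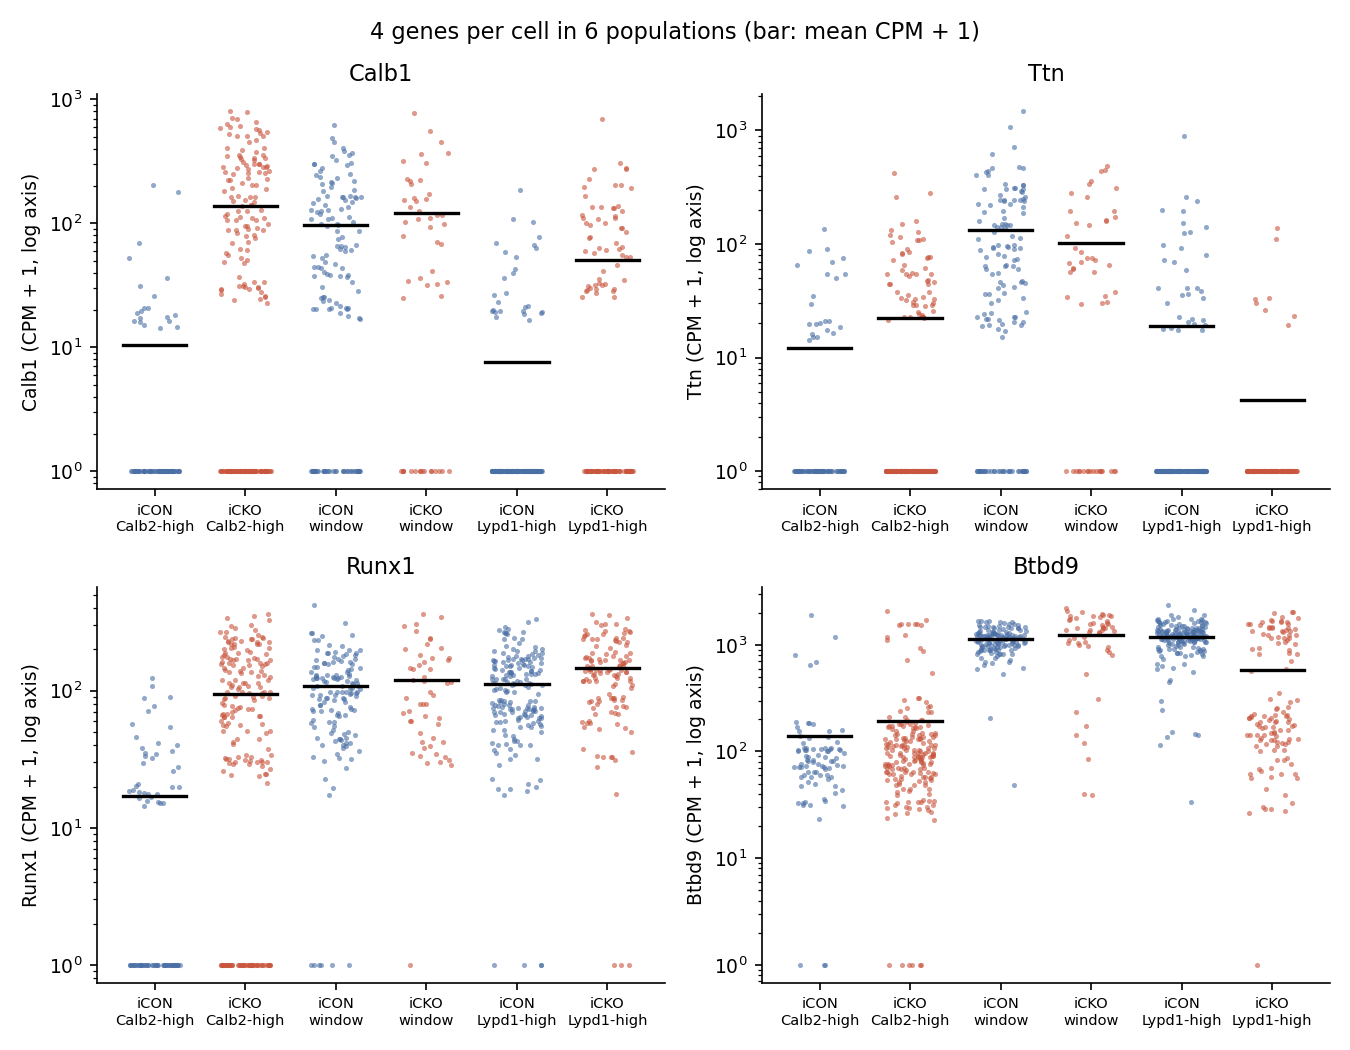
*Calb1*, *Ttn*, *Runx1* and *Btbd9* in single cells, as CPM plus 1 on log axes, for *Calb2*-high, window and *Lypd1*-high cells of iCON (blue) and iCKO (red); black bars are means plus 1. In iCKO, the mean of *Calb1* is 121 CPM in window and 136 CPM in *Calb2*-high cells, while *Ttn* and *Btbd9* are highest in the window (means of 101 and 1243 CPM).

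Across the other genes, members and control window cells were close. Of 3810 genes with a mean of at least 50 CPM and a UMI in at least 25% of cells in either window population, 2 (0.0525%) were at least 2-fold higher in members and 7 (0.184%) at least 2-fold lower. The median ratio was 0.04 and 57% of the genes lay above 0. From -0.49 to 0.47 the ratios took in the central 95% of the genes. By comparison, 4 of 3665 genes (0.109%) were at least 2-fold higher and 2 (0.0546%) at least 2-fold lower in iCKO than iCON *Calb2*-high cells. In *Lypd1*-high cells 10 of 3790 genes (0.264%) were at least 2-fold higher in iCKO and 6 (0.158%) at least 2-fold lower. These counts have no test, and the populations differ in cell number and depth. The window counts moved with the cells used, to 5 higher and 44 lower in Y-linked cells (16 members) and 7 and 8 in *Xist* cells (35 members). With *Calb2* under 5000 CPM, which leaves 15 members, they were 8 and 28. These counts rest on fewer cells, and the number of genes tested in each setting is not given here, so they are not comparable with the main counts.

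The genes highest in members over iCON window cells were led by *Sh3bgr* and *Cdh22*. *Sh3bgr* (chr16:96200450-96228935, plus strand), which encodes a small glutamate-rich protein with an SH3-binding motif, ran from 0 to 349 CPM in members with a median of 95.4, and from 0 to 301 CPM in iCON window cells with a median of 0. Its mean was 120 CPM against 21.9 CPM, a log2 ratio of 2.22 (interval 2.10 to 2.74). *Cdh22* (chr2:165111507-165234853, minus strand), a cadherin of cell-cell adhesion, had means of 51.0 and 20.5 CPM, medians of 35.1 and 0, and a log2 ratio of 1.14 (1.01 to 1.84). The ranges of single cells overlapped for both genes. Both ratios stayed above 1 within each sex class: *Sh3bgr* was at 2.09 in *Xist* and 2.01 in Y-linked cells, and *Cdh22* at 1.09 and 1.02.

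The next 10 genes lay between 0.73 and 0.97 on the log2 scale. They were *Rph3a*, *Mturn*, *Ush1c*, *Cbfa2t3*, *Sbf1*, *Gnal*, *Bag3*, *Col27a1*, *Ube2m* and *Fam189a2*. *Rph3a*, which encodes rabphilin, a Rab3 effector on synaptic vesicles, averaged 59.9 CPM in members and 28.1 CPM in iCON window cells. The highest cell held 511 CPM among members and 182 CPM among iCON window cells. *Cbfa2t3*, a transcriptional corepressor of the ETO family, averaged 69.0 and 36.1 CPM (log2 ratio 0.85). *Ush1c*, the gene of the scaffold protein harmonin, averaged 53.5 and 26.6 CPM (0.89), but its ratio was 3.42 in *Xist* cells, 0.60 in Y-linked cells and 0.40 in high-myelin cells. *Ube2m*, the conjugating enzyme for the ubiquitin-like protein NEDD8, averaged 352 and 208 CPM, with a UMI in every window cell of both libraries. All 12 genes were above 0 within each sex and myelin class, which the choice of the 12 over the same cells largely fixes, and some ratios were near 0. In low-myelin cells *Mturn* was at 0.022 and *Rph3a* at 0.27, and in Y-linked cells *Gnal* was at 0.25 and *Fam189a2* at 0.23.

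RUNX proteins are known to bind the letters TGTGGT, and the promoters of these genes were searched for them on both strands. RefSeq promoters (GRCm38.p6, 250 bases before to 50 after the start) were on hand for 10 of the 12 highest genes, and *Rph3a* was the only gene of the 10 with a match at any listed start. Of all 32851 promoters of that length, 16.8% held the letters, as did at least 1 promoter of 13.7% of the 2938 tested genes with an entry. Promoters were listed for 4 of the 12 lowest genes and for 4 of the 8 control window genes described below, and none of these held a match. The *Rph3a* promoter with the most matches and the distal *Runx1* promoter, the gene targeted here, are shown with the letters in capitals (ACCACA is TGTGGT on the other strand). A match is a description of the sequence and was not tied to any change in RNA.
Rph3a (chr5:121010043-121010342, minus strand): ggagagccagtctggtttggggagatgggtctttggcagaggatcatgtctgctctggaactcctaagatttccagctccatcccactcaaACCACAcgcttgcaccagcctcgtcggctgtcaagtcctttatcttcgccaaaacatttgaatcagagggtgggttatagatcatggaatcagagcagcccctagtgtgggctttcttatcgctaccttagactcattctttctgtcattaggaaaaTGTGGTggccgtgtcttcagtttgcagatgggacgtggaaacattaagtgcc
Runx1 (chr16:92826025-92826324, minus strand): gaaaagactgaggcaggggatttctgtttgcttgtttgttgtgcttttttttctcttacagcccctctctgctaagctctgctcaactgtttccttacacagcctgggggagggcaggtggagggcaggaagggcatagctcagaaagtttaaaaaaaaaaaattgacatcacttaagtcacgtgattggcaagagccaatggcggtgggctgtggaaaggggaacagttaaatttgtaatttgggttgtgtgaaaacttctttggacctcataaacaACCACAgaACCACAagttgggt

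**Figure D3:**
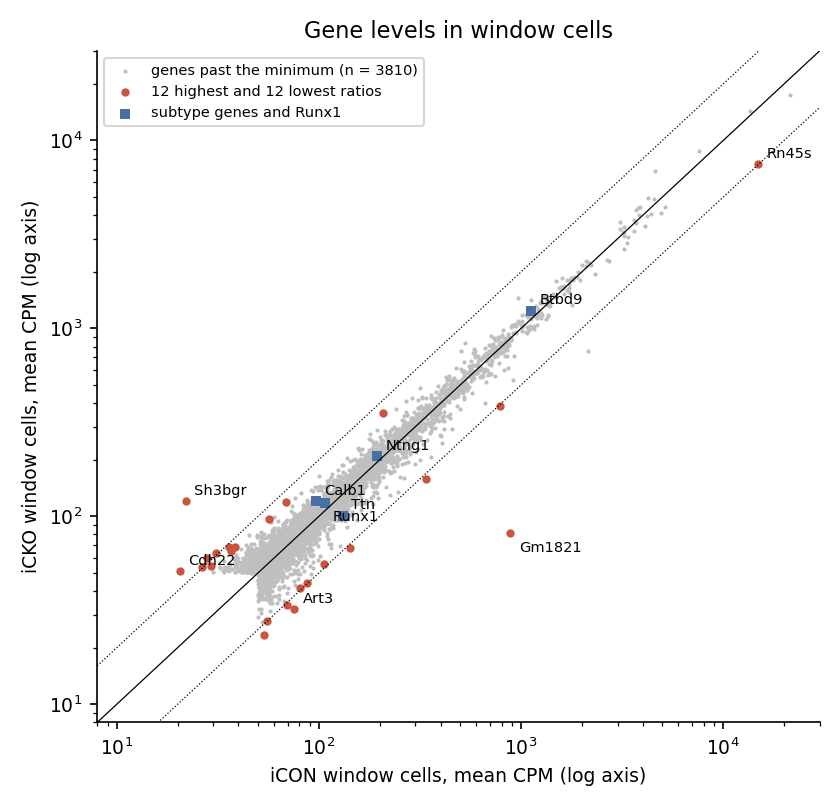
Mean level of each of 3810 genes in iCON (horizontal) and iCKO (vertical) window cells, in CPM on log axes, with the line of equality and dotted lines at 2-fold. Red points are the 12 highest and 12 lowest ratios among the genes reported and blue squares are subtype genes and *Runx1*; 2 genes lie above and 7 below the dotted lines.

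The genes lowest in members included processed pseudogenes, ribosomal RNA and insulin-like growth factor binding proteins. *Gm1821* (chr14:46084028-46085000, plus strand), a transcribed processed pseudogene, averaged 81.1 CPM in members and 885 CPM in iCON window cells, a log2 ratio of -3.37. It was detected in 7 members and 132 iCON window cells. The ratio mixes unlike classes: it was -7.37 in *Xist* cells, where members held 1 UMI, and -1.66 in Y-linked cells. *Art3*, *Mir6236*, *Med30*, *BC002163* and *Igfbp6* followed at -1.12 to -1.01. The insulin-like growth factor binding protein gene *Igfbp6* averaged 387 and 787 CPM. Its ratio was -0.56 in high-myelin and -0.39 in low-myelin cells, so it was not past 2-fold in either class, and the myelin and satellite glia list was lower with it (median -0.65). *Rn45s*, the ribosomal RNA precursor, averaged 7484 and 14838 CPM (-0.99), but its medians were 4741 and 4630 CPM, so that a few cells carried the difference of the means. The highest single cell held 76364 CPM among members and 196055 CPM among iCON window cells. *Igfbp2*, *Serpine2*, *Cxx1c*, *Rap1a* and *Gm561* completed the 12. In high-myelin cells *Art3* was at -0.72, *Igfbp2* at -0.55 and *Serpine2* at -0.49, against -1.12, -0.95 and -0.90 over all window cells. *Cxx1c*, *Rap1a* and *Gm561* were at -0.94, -1.07 and -0.88 in high-myelin cells. Reads of *Gm1821*, *BC002163* and *Cxx1c* may be divided among near-identical copies, so their levels are uncertain.

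The same directions appeared outside the window. Of the 12 highest genes, 11 were also higher in iCKO than iCON among *Calb2*-high cells and 12 among *Lypd1*-high cells, with median log2 ratios of 0.44 and 0.74. Of all genes tested, 54% lay above 0 and 46% below in the first comparison, and 51.3% and 48.7% in the second. Past 2-fold were 1 and 4 of the 12. *Rph3a* was the exception, at 22.1 CPM in iCKO and 29.6 CPM in iCON *Calb2*-high cells. All 12 lowest genes were also lower in iCKO in both populations, with medians of -0.73 and -0.71, and 3 and 2 of them were past 2-fold. These 24 genes were not held to the minimum level again in the neighbouring populations. *Sh3bgr* averaged 138 CPM in iCKO and 94.7 CPM in iCON *Calb2*-high cells, and 168 and 19.7 CPM in *Lypd1*-high cells. Among the 12 lowest, all were below 0 in *Xist*, Y-linked and high-myelin cells, and 9 were in low-myelin cells, again over the cells that chose them. *Art3*, *Igfbp2* and *Serpine2* had 0 UMIs in the low-myelin cells of both windows.

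**Figure D4:**
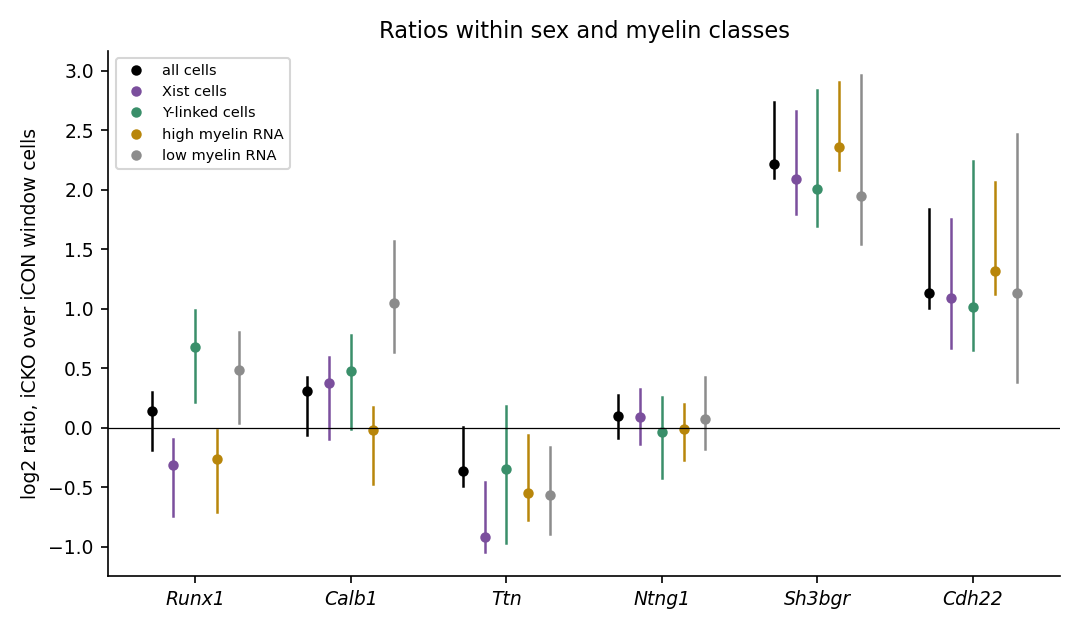
Log2 ratio of iCKO over iCON window cells (vertical) for 6 genes, over all window cells and within sex and myelin classes; points are ratios of mean CPM and bars are 95% counting intervals of summed UMIs. *Sh3bgr* and *Cdh22* lie above 0 in every class, while *Runx1* lies below 0 in *Xist* and high-myelin cells and above 0 in the others.

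Genes that tell the control subtypes apart placed the members between them, as they did the control window cells. Of the genes at least 2-fold higher in iCON *Calb2*-high than in iCON *Lypd1*-high cells, 35 passed the minimum. Their median log2 ratio of iCKO over iCON window cells was 0.12, with 24 above 0, beside 57% above 0 over all genes. *Sh3bgr* was the only gene past 2-fold, beside the background of 0.0525% higher and 0.184% lower. The mean log2 level of the 35 genes was scaled with iCON *Lypd1*-high cells at 0% and iCON *Calb2*-high cells at 100%. On this scale iCON window cells lay at 43.9% and members at 57.9%. *Sh3bgr*, 1 of the 35, was also higher in iCKO than iCON among *Lypd1*-high cells (168 against 19.7 CPM). Its part in the placing of members was not tested. *Mdga1*, a membrane-anchored synaptic adhesion protein, averaged 373 CPM in members, 242 CPM in iCON window cells and 914 CPM in iCON *Calb2*-high cells. *B3gat1*, which makes the HNK-1 carbohydrate epitope, averaged 76.6, 54.2 and 146 CPM. Both means were uneven among members: 8 cells described below averaged 948 CPM of *Mdga1* and 146 CPM of *B3gat1*, and 43 others averaged 268 and 65.4 CPM. The 8 were set apart by low *Btbd9*, and in the 136 iCON window cells that were not low in it the means were 223 and 51.0 CPM.

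Of the genes at least 2-fold higher in iCON *Lypd1*-high cells, 60 passed the minimum. Their median ratio between the windows was 0.11, with 40 above 0 and none past 2-fold, beside 57% above 0 over all genes. Placed from iCON *Lypd1*-high (0%) to iCON *Calb2*-high cells (100%), iCON window cells lay at 46.8% and members at 42.6%. Both lists had medians a little above that of all genes, 0.04. Within classes the median of the second list was -0.047 in Y-linked, 0.040 in *Xist*, -0.0076 in high-myelin and 0.16 in low-myelin cells. The iCKO *Lypd1*-high cells lay at 37.6% on the first list and 12.7% on the second, and the iCKO *Calb2*-high cells at 99.7% and 82.4%.

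A further list held the 8 genes at least 1.5-fold higher in iCON window cells than in both iCON neighbours: *Calb1*, *Ttn*, *Hsd17b14*, *Ccdc155*, *Edil3*, *Dnajc13*, *Plcb4* and *Nrsn2*. In members over the mean of their 2 iCKO neighbours all 8 were above 0, with a median log2 ratio of 0.65. The same ratios over all genes had a median of 0.03, with 58.6% above 0. *Ttn* was highest at 2.61, with 101 CPM in members, 21.4 CPM in iCKO *Calb2*-high and 3.25 CPM in iCKO *Lypd1*-high cells. *Edil3*, which encodes a secreted matrix protein, was at 1.29, with 127, 62.9 and 34.6 CPM. *Calb1* was the lowest of the 8 at 0.37, although it was the highest within iCON at 2.96. Its level was 121 CPM in members, 136 CPM in iCKO *Calb2*-high cells and 49.3 CPM in iCKO *Lypd1*-high cells, against 9.49 and 6.59 CPM in the iCON neighbours. *Calb1* therefore did not separate the members from *Calb2*-high cells of their library (log2 ratio -0.16, with an interval of -0.43 to 0.04 that includes 0). Between the windows themselves the 8 genes had a median ratio of -0.05. The list was chosen on iCON cells, so that its larger median within iCON, 0.97, is in part set by that choice.

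**Figure D5:**
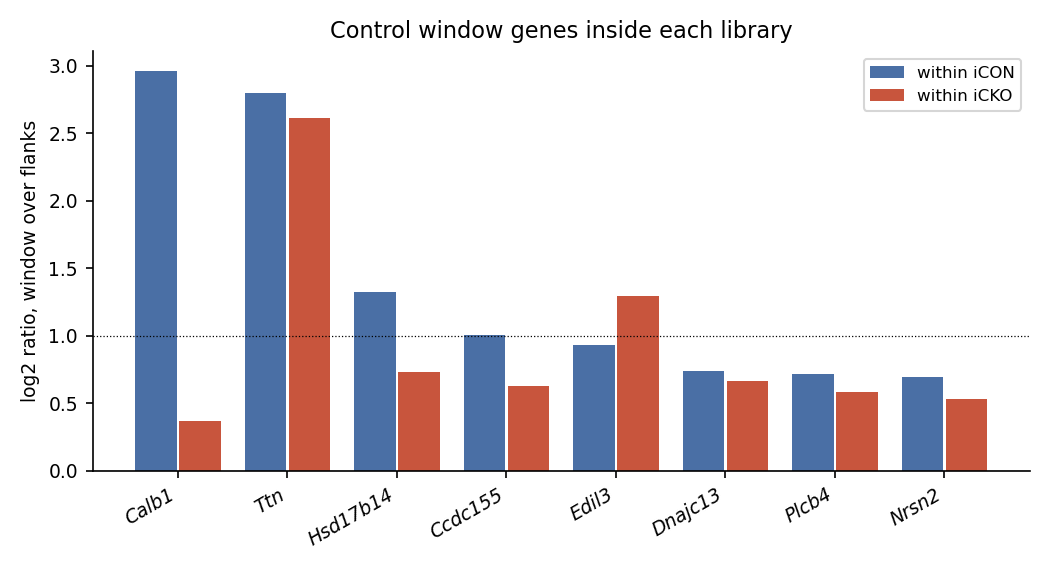
Log2 ratio of window cells over the mean of *Calb2*-high and *Lypd1*-high cells of the same library, for the 8 control window genes; the dotted line marks 2-fold. Within iCKO *Ttn* (2.61) and *Edil3* (1.29) pass 2-fold, and *Calb1* is at 0.37 within iCKO and 2.96 within iCON.

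Set against the *Calb2*-high cells of their own library, members were at least 2-fold higher in 12 of 3738 genes (0.321%) and at least 2-fold lower in 6 (0.161%). The same comparison within iCON gave 26 of 3705 genes higher (0.702%) and 15 lower (0.405%). Of the 12 genes higher in members, 9 (75% of the iCKO list and 34.6% of the iCON list) were also on the iCON list: *Btbd9*, *Cpne6*, *Ttn*, *Gldn*, *Rnf123*, *Slc17a6*, *Ntng1*, *Kcnip2* and *Rbfox3*. All 6 lower genes were on the iCON list as well (40% of it): *Pygl*, *Car2*, *Rxrg*, *Mdga1*, *Gnao1* and *B3gat1*. *Slc17a6*, the vesicular glutamate transporter VGLUT2, averaged 205 CPM in members and 74.7 CPM in iCKO *Calb2*-high cells. *Ntng1* averaged 209 and 76.7 CPM there, but 195 and 12.7 CPM within iCON.

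Against the *Lypd1*-high cells of their library, members were at least 2-fold higher in 9 of 3809 genes (0.236%) and at least 2-fold lower in 16 (0.42%). Within iCON the counts were 9 of 3731 (0.241%) and 16 (0.429%). Of these, 4 higher genes (44.4% of each list) and 9 lower genes (56.2% of each list) were shared. The shared higher genes were *Ttn*, *Casz1*, *Neb* and *Calb1*. The shared lower genes included *Grm8*, *Pou4f1*, *Sphkap*, *Pcsk2* and *Ccdc109b*. *Ccdc109b*, a subunit of the mitochondrial calcium uniporter, averaged 1.12 CPM in members, from 2 UMIs, and 84.4 CPM in iCKO *Lypd1*-high cells. *Sphkap*, an anchoring protein for protein kinase A, averaged 10.7 and 151 CPM.

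*Btbd9* (chr17:30215524-30576488, minus strand), the gene of a BTB-domain protein, divided window from *Calb2*-high cells in both libraries and was singled out after its values were seen. After thinning it had a median of 27 UMIs per member, 2 UMIs in iCKO *Calb2*-high cells and 4 UMIs in iCKO *Lypd1*-high cells. In iCON the medians were 22, 1 and 24 UMIs, so that it did not divide window from *Lypd1*-high cells there. With a limit of 10 UMIs, also set after the values were seen, 8 of 51 members (15.7%, 7.02 to 28.6) and 2 of 138 iCON window cells (1.45%, 0.176 to 5.14) lay below. Below it lay 186 of 201 iCKO and 78 of 83 iCON *Calb2*-high cells. Of the *Lypd1*-high cells, 78 of 125 in iCKO (62.4%) and 9 of 178 in iCON (5.06%) did. Near the limit, from 5 to under 15 UMIs, lay 5 members.

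The 8 members low in *Btbd9* had *Calb2* between 6471 and 9892 CPM with a median of 8784, whereas the other 43 had a median of 5895 CPM. These 8 averaged 948 CPM of *Mdga1*, against 268 CPM in the 43, and 36.9 against 9.75 CPM of *Rxrg*. Their *Ttn* averaged 6.99 CPM against 117 CPM, their *Calb1* 55.5 against 133 CPM and their *Slc17a6* 116 against 226 CPM. *Sh3bgr* averaged 231 CPM in the 8 and 98.6 CPM in the 43. All 8 had high myelin-gene RNA, as did 22 of the 43, and 6 and 28 were *Xist* cells. None of the 8 was a called doublet, while both called doublets among members were among the 43.

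The gene groups drawn up for this tissue mostly had medians near that of all genes. Of the fibroblast or bone list, 2 genes passed the minimum, the collagen gene *Col1a2* at -0.84 and *Sparc*, the gene of osteonectin, at 0.50. The myelin and satellite glia list was lower. Of its 7 genes past the minimum, 6 were below 0 and the median was -0.65. Its summed level in single cells ranged from 870 to 7053 CPM in members (median 4166) and from 622 to 16429 CPM in iCON window cells (median 5849). *S100b* was the exception at 0.19. Of 11 sodium, HCN and calcium channel genes, 9 were above 0, with a median of 0.15. *Hcn2*, a channel of the hyperpolarization-activated current, averaged 274 CPM in members and 178 CPM in iCON window cells (0.61).

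Of 17 potassium channel genes 9 were above 0, with a median of 0.00, and *Kcna1*, a low-threshold channel of these neurons, averaged 1844 and 1588 CPM. Among 19 genes of vesicular glutamate transport and release, 13 were above 0, from *Snap25* at -0.22 to *Sv2b* at 0.43. *Slc17a7*, which encodes VGLUT1, averaged 659 and 523 CPM (0.33). Of 11 calcium-binding protein genes other than *Calb2*, 7 were above 0, led by *Cabp1*, a calmodulin-like regulator of calcium channels, at 412 and 269 CPM (0.60). *Nefh*, the neurofilament heavy chain, averaged 6910 and 4607 CPM (0.58), while *Nefl*, the light chain, averaged 4037 and 4382 CPM (-0.12). Of 17 neurofilament and growth cytoskeleton genes, 11 were above 0. Of 22 adhesion genes 12 were above 0, and of 10 axon guidance genes 8 were. Of 78 oxidative phosphorylation genes, 34 were above 0 and 44 below, with a median of -0.02 and a range of -0.50 to 0.19. Over all 3810 genes 57% were above 0, which is the background for these shares.

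Of the RUNX family and its cofactors, 4 genes passed the minimum and 3 were above 0. The background of 57% above 0 over all genes applies to this list and to the transcription regulators below. *Cbfa2t3* was highest at 0.85 and the Groucho-family corepressor gene *Tle4* was lowest at -0.08. *Crebbp*, an acetyltransferase coactivator, was at 0.01. Of 14 transcription regulators 10 were above 0, between *Id2* at -0.73 and *Casz1* at 0.34. *Id2* and *Id3*, inhibitors of helix-loop-helix factors, were at -0.73 and -0.71 over all window cells and at -0.10 and -0.52 in low-myelin cells. Both genes of the dissociation list past the minimum, *Jun* and *Jund*, were below 0, at -0.05 and -0.27.

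Among themselves the members varied most in RNAs that also varied most in the control window. After thinning, the variance over the mean (Fano factor; 1 for pure counting) had a median of 1.09 over 3579 genes, and 121 genes exceeded 2. *Rn45s*, *Malat1* and *Meg3* ranked highest in both windows, and 9 of the 10 highest genes in members were also among the 10 highest in iCON window cells. The other was *Gm1821*, which ranked 7 in members and 49 in iCON. *Btbd9* ranked 18 in members, with a Fano factor of 6.10, and 136 in iCON window cells. *Calb1* ranked 34 and 67, with 0 to 14 UMIs per thinned member. *Mdga1* ranged from 0 to 25 UMIs with a Fano factor of 4.40.

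Levels of other genes were also set against *Calb2* within the window. *Ttn* averaged 163 CPM in the 18 members with *Calb2* from 3000 to under 6000 CPM and 65.5 CPM in the 29 from 6000 to under 10000 CPM. In iCON window cells the same ranges had 124 and 90.1 CPM, and the 23 cells under 3000 CPM had 233 CPM. Only 5 members lay under 3000 CPM, and their *Ttn* averaged 81.7 CPM, below that of the middle range. *Mdga1* averaged 257 and 461 CPM in the middle and upper ranges of members, against 230 and 281 CPM in iCON. All 8 members low in *Btbd9* lie in the upper range. Their *Mdga1* mean of 948 CPM raises the *Mdga1* value there, and their *Ttn* mean of 6.99 CPM lowers the *Ttn* value. Over the 51 thinned members, Spearman's rho with *Calb2* was -0.32 for *Ttn*, 0.28 for *B3gat1*, -0.27 for *Runx1* and -0.07 for *Calb1*. Over 138 iCON window cells the values were -0.22, 0.31, -0.09 and -0.15. *Calb1* and *Runx1* had a rho of 0.34 in members and 0.07 in iCON window cells. These cells share a library and its animals, and the values are descriptions.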

How the data were processed

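Single-cell RNA was measured in 1 iCON and 1 iCKO library. For 14425 genes in 869 cells the authors deposited values on a natural log scale, ln(1 + CPM), a unit settled from the values, and the deposited annotation assigns each cell to a library. Cell Ranger, Seurat and mm10 are named in the submitters' processing notes; cell and gene filters are not given in the sources used here. Linear values summed to 1000000 in each cell, and 100% of nonzero values lay within 1e-06 of a whole multiple of the cell's smallest value, which gave UMIs. Depth was 16168 to 93322 UMIs per cell in iCON and 18582 to 79487 in iCKO.

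Levels are mean CPM over cells. Ratios are log2 with a pseudocount of 5 CPM, over genes with at least 50 CPM and a UMI in 25% of cells in either population, leaving out *Calb2*, *Lypd1* and sex-linked genes. With 1 library per group no p-value was computed. Intervals at 95% are exact Poisson, Clopper-Pearson, conditional binomial (ratios) or Newcombe (differences of shares); where a count is 0, the limit given is instead 3 counts of the total. Cells were thinned to 20000 UMIs for shares of cells. Doublets were called with Scrublet in scanpy 1.11.5 (Python 3.11.15, numpy 2.4.6, scipy 1.17.1) and kept. The computation of ratios was checked on simulated counts. Gene positions are from GENCODE M21 (GRCm38), matching mm10.

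Named genes were the 12 highest and 12 lowest ratios, the subtype markers, *Runx1* and up to 3 genes each way per list; genes shared with the control comparisons and *Btbd9* were added after their values were seen. A few genes that would rank among these count in totals over all genes and are not reported here. The members and gene lists were chosen with earlier results of these data known. Alternatives varied the *Calb2* and *Lypd1* limits, sex and myelin classes, doublets, type II cells, depth, pseudocount, minimum and scaling.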

Additional observations from a re-analysis of the deposited data

Results flagged for a closer look

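The ratio of *Runx1* between the windows differed between sex classes. Among *Xist* cells, 35 members averaged 101 CPM and 51 iCON window cells 127 CPM, a log2 ratio of -0.31 with a counting interval of -0.74 to -0.09. Among Y-linked cells, 16 members averaged 156 CPM and 86 iCON window cells 95.2 CPM, a log2 ratio of 0.68 (0.22 to 0.99). The *Xist* ratio minus the Y-linked ratio was -0.995. It was singled out because the intervals lay on opposite sides of 0. The difference itself was not tested, since each class comes from 1 library per group.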

How the results depend on the processing

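Over 19 alternative settings, 115 of 162 values of the main results stayed within counting error or, for gene counts, within 1.5-fold, and the share of cells in the window was lower in iCKO in each setting run for it. The causes of the moves were not tested. In *Xist* cells the share difference was -9.27 points, 7 genes were at least 2-fold higher, *Lrrc52* was at 0.64, *Runx1* at -0.31, and the *Calb2*-high and *Lypd1*-high lists at 0.21 and 0.040. In Y-linked cells the difference was -23.1 points, 5 genes were higher and 44 lower, *Calb1* was at 0.48, *Lrrc52* at -1.91 (0 UMIs in these members), *Runx1* at 0.68 and the *Lypd1*-high list at -0.047, and *Pcdh20* reversed to -0.45. With high myelin-gene RNA 6 genes were higher and 4 lower, *Runx1* was at -0.26, the lists at 0.25 and -0.0076, and the control window genes within iCKO at 0.45. With low myelin-gene RNA the difference was -11.1 points, 8 genes were higher, *Calb1* was at 1.05, *Runx1* at 0.49 and the control window genes at 0.52. In *Xist* cells with high myelin-gene RNA, chosen after seeing the data, the difference was -10.2 points, 12 genes were higher and 12 lower, *Runx1* was at -0.53, the *Lypd1*-high list at -0.0445 and the control window genes at 0.495. With *Lypd1* under 50 CPM 1 gene was higher and *Calb1* was at 0.46. With *Calb2* under 5000 CPM, which leaves 15 members, 8 genes were higher and 28 lower, *Calb1* was at -0.074 and *Runx1* at 0.42. Thinned to 20000 UMIs, the *Calb2*-high list was at 0.195 and the control window genes at 0.535. A pseudocount of 1 CPM gave 4 higher genes, and 20 CPM gave 1 higher and 3 lower. Summed UMIs gave 4 lower genes, no minimum gave 17 higher and 23 lower, and a minimum of 100 CPM in 50% of cells gave 1 higher. With iCON cells weighted to the iCKO *Calb2* levels, *Calb1* was at 0.49 and the *Lypd1*-high list at 0.17. No paired analysis was possible because each group is 1 library. With 52 members, genes under about 50 CPM rest on few UMIs, and differences of that size are limited by counting.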

Other observations

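*Ush1c* and *Gm1821*, of the 12 highest and the 12 lowest genes, split by sex class within a library. In the iCON window 0 of 51 *Xist* cells held a *Ush1c* UMI, which by the same limit of 3 counts allows a share of up to 5.88%, against 64 of 86 Y-linked cells (74.4%). Among members it was found in 29 of 35 (82.9%) with *Xist* and 14 of 16 (87.5%) with Y-linked RNA. *Gm1821* UMIs were found in 1 of 35 *Xist* members and 6 of 16 Y-linked members, and in 51 of 51 and 79 of 86 iCON window cells. Its mean was 262 CPM in Y-linked members and 835 CPM in Y-linked iCON window cells. The number of animals behind each class is not given, so sex and animal cannot be told apart.

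*Sh3bgr*, the gene with the highest ratio in members, starts 3.37 megabases from *Runx1* on chromosome 16. Of the 12 highest and 12 lowest genes, 2 lie on that chromosome, the other being the pseudogene *BC002163*. The share of all tested genes on that chromosome is not given here, so the count is only a description.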
